A study of Mus musculus with 15 samples.

Results

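Imprinted genes are read mainly or only from the copy inherited from the mother or from the father, and 40 of them, listed by symbol, are described here in mouse midbrain cells. Of the 40, 39 were in the gene table of the sorted cells, which held 21566 genes, and 35 were in that of the time series, which held 10781. Phlda2 was in neither table, and Dio3, Igf2, Airn and Plagl1 were in the former alone. Circular RNAs (circRNAs, closed loops counted over a back-splice junction) whose names carry the symbol of an imprinted gene numbered 28 of 7528 in the time series and 19 of 3927 in the sorted cells.

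Cells were taken from ventral midbrains of the Pitx3-GFP mouse line, whose green fluorescent protein (GFP) reports activity of Pitx3, a transcription factor gene of dopamine neurons, and were separated by flow cytometry. The sorted experiment compared 3 GFP+ and 3 GFP- libraries of embryonic day 14 (E14). The time series held GFP+ cells alone, with 3 libraries each for E14, for embryonic day 16 (E16) and for birth (P0). Midbrains of 3 litters were used, but the labels do not tie a replicate to a litter, so p-values cover the variation among the samples at hand, which may be technical in part. The sources used here give no strain, sex or reporter allele design. Libraries were ribosomal-RNA-depleted total RNA, and values are the authors' normalized reads per gene. Recovered depth was 17369191 to 22374153 gene reads per sorted library and 17910017 to 33386535 per time series library. GFP- samples also carry the cell type label of dopamine neurons, yet 8 of 8 dopamine neuron markers were higher in GFP+ cells, with summed levels of 72666 to 79567 normalized reads against 4250 to 5200 in the GFP- libraries. In such bulk samples, fewer cells of a type and less RNA per cell cannot be told apart.

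Imprints are marks of DNA methylation that the egg or sperm lays down at control regions. The zinc finger proteins ZFP57 and ZFP445 bind them in the early embryo and, with TRIM28 and DNA methyltransferases, keep them through development. Genes under imprints lie in clusters in which a long non-coding RNA from the copy of a single parent often sits beside protein-coding genes read from that of the other. Many of them steer growth, placental function and brain development, and several, such as Grb10 and Ube3a, have a parental usage that differs between neurons and other cells. Reads here were not separated by parent, so every value is the sum of both copies.

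The windows around the starts of 4 genes on which the results turn are shown, from 250 bases before to 50 bases after the start, 5′ to 3′ on the strand of the gene, from RefSeq on GRCm38.p6. Capitals mark TGCCGC, the hexanucleotide bound by ZFP57 when methylated, or GCGGCA, the same letters on the other strand. Dlk1 (chr12:109452573-109452872, + strand) and Meg3 (chr12:109540746-109541045, + strand) open the cluster with the largest differences and took opposite courses with age.
Dlk1: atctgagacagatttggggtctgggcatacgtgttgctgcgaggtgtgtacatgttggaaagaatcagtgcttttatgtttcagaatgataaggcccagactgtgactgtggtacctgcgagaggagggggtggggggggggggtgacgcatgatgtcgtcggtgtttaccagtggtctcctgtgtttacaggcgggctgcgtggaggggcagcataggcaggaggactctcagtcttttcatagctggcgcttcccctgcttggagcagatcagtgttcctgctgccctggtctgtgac
Meg3: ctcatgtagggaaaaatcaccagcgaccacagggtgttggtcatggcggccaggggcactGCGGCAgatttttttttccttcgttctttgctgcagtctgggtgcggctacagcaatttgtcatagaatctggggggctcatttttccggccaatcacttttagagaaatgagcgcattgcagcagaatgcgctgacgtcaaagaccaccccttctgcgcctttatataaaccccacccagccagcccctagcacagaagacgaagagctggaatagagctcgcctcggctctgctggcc
Usp29 (chr7:6730333-6730632, + strand) and Peg3 are read away from each other, their windows share 263 bases, and both rose with age. Nap1l5 (chr6:58907077-58907376, - strand) is a retrogene whose rise between E14 and P0 was the largest of any member relative to its SE.
Usp29: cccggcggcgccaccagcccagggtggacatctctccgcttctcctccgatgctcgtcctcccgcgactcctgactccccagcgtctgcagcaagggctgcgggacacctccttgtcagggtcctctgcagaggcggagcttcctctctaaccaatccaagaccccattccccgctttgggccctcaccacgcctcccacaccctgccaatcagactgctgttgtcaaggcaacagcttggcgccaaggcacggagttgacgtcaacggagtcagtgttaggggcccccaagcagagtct
Nap1l5: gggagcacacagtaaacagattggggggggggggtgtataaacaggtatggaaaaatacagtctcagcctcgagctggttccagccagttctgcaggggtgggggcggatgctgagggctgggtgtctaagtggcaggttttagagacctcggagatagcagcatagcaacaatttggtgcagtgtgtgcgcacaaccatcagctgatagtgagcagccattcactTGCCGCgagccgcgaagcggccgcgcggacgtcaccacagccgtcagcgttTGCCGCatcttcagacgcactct
The hexanucleotide, searched on both strands and counted where it overlaps, occurred at 1 place in the Meg3 window, at 2 in that of Nap1l5 and in neither of the others. RefSeq windows were matched for 32 members, with 48 windows in all, of which 13 (27.1%) held the motif, against 11.6% of all 32851 windows of the same length. Overlapping windows were counted apart, such as 2 of Mest with the motif, which start at chr6:30737800 and chr6:30737803. By gene, 12 of the 32 members had a window with the motif. The windows of members held a median of 15 CpG sites, against 7 over all windows, and the motif itself holds a CpG. A match is a string of letters in a window, not a bound site.

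At E14, 21 of 39 imprinted genes (53.8%) differed between GFP+ and GFP- cells at an adjusted p below 0.05 (limma, Benjamini-Hochberg over all 18260 genes tested), against a background of 30.7% over all genes. In GFP+ cells 8 were higher and 13 lower (20.5% and 33.3% of members), with 12.7% and 18.0% over all genes. Of all calls 41.3% were higher, and 52.0% under quantile normalization. With the library number as a block, 11 members were higher and 17 lower, against 22.7% and 23.6% of all genes. The members' median log2 fold change was -0.11, with 0.02 over all genes. Higher were Dlk1, Meg3, Rian, Mirg and Rtl1 of the Dlk1-Dio3 cluster, Peg13, Asb4 and Ube3a. Lower were Dio3, Plagl1, H19, Magel2, Igf2, Grb10, Peg10, Mest, Inpp5f, Nnat, Nap1l5, Impact and Ndn. GFP+ and GFP- libraries did not overlap for 23 of 39 members (59.0%), with 44.1% over all genes. All 39 members in the table passed the filter of a mean of at least 5 normalized reads. Shares over all genes, here and below, were not matched to the members in level of expression.

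**Figure D1:**
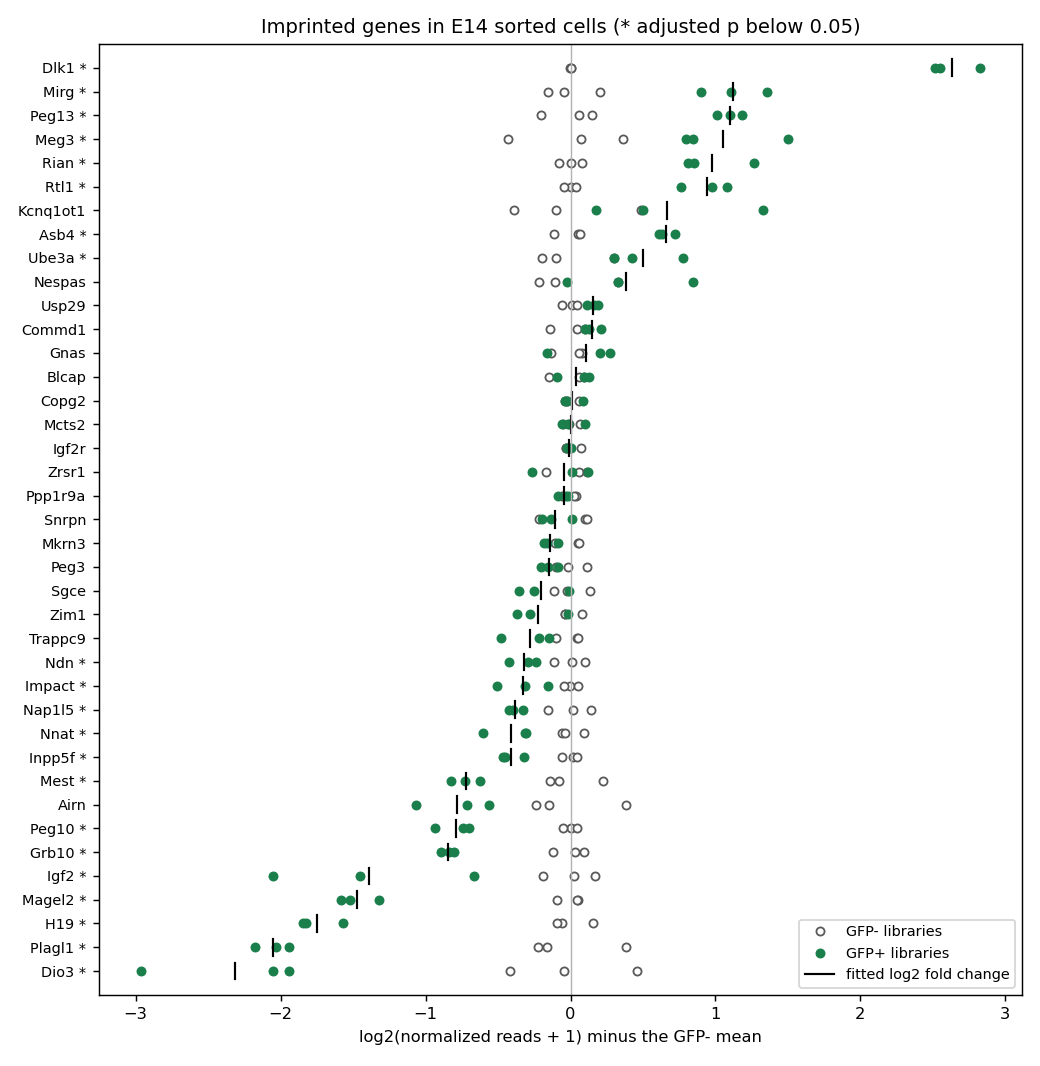
Each row is 1 imprinted gene in the 6 sorted E14 libraries, as log2(normalized reads + 1) minus the GFP- mean, with open points for GFP- libraries, green points for GFP+ libraries and a bar at the fitted log2 fold change. Dlk1 stands apart at the top at 2.63, and Dio3, Plagl1 and H19 lie at the bottom at -2.32, -2.05 and -1.75.

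The Dlk1-Dio3 cluster on chromosome 12 (chr12:109452823-110281097 on GRCm38, from the start of Dlk1 to the end of Dio3) held the largest rise and the largest fall of any member. Dlk1, a transmembrane relative of the Notch ligands read from the paternal copy, stood at 419.8, 418 and 422 normalized reads in the GFP- libraries and 2467, 2406 and 2988 in the GFP+ libraries. Its log2 fold change was 2.63 (adjusted p = 4.8e-09, SE 0.10), a 6.2-fold difference, and the groups were far apart. Dio3, the enzyme that inactivates thyroid hormone, lies at the other end of the cluster and stood at 53.8, 70 and 99.7 normalized reads in the GFP- libraries and 8.38, 16.7 and 18.1 in the GFP+ libraries. These are low levels, the groups did not overlap, and the log2 fold change was -2.32 (adjusted p = 3.1e-04, SE 0.34).

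Between these ends lie the maternally read non-coding RNAs. Meg3, a nuclear long non-coding RNA, stood at 23765, 19524 and 13722 normalized reads in the GFP- libraries and 52476, 33357 and 32188 in the GFP+ libraries. Rian, the host of a large array of C/D box small nucleolar RNAs, stood at 26773, 25492 and 23999 normalized reads in the GFP- libraries and 61115, 44608 and 45741 in the GFP+ libraries. Mirg, the host of a large array of microRNAs, stood at 1281, 1081 and 999 normalized reads in the GFP- libraries and 2848, 2076 and 2402 in the GFP+ libraries. All 3 RNAs were higher in GFP+ cells, with log2 fold changes of 1.05 (adjusted p = 0.0027, SE 0.21) for Meg3, 0.98 (adjusted p = 9.6e-05, SE 0.12) for Rian and 1.12 (adjusted p = 3.2e-05, SE 0.12) for Mirg, and no overlap of the groups. Rtl1, a retrotransposon-derived gene read from the paternal copy on the opposite strand, stood at 157, 161 and 152 normalized reads in the GFP- libraries and 309.9, 266 and 333 in the GFP+ libraries. It was higher without overlap, at 0.94 (adjusted p = 1.7e-04, SE 0.13). MicroRNA hairpin genes lie against it in antisense, and whether counting used strand was not stated in those sources, so their reads and those of Rtl1 cannot be told apart.

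The ratio of 1 gene to another within a library does not depend on the scaling of libraries. The log2 ratio of Rian to Meg3 was 0.45 ± 0.32 in GFP- and 0.38 ± 0.15 in GFP+ cells (SD, n = 3 libraries each), and that of Mirg to Meg3 was -4.06 ± 0.24 and -3.98 ± 0.23, with overlapping libraries in both cases (two-sided exact permutation tests, p = 0.9 and p = 0.6). The ratio of Meg3 to Dlk1 fell from 5.46 ± 0.41 to 3.88 ± 0.50 without overlap (two-sided exact permutation test, p = 0.1), the smallest value that 3 against 3 libraries allow. Over the 54 ratio comparisons made, the lowest adjusted p was 0.154, so none could pass. The groups did not overlap in 35 of the 54, so a ratio without overlap was the more common outcome.

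The libraries numbered 1 of both fractions had the highest Meg3, and they were also the highest in Malat1, an abundant nuclear long non-coding RNA outside any imprinted cluster. Malat1 stood at 245510, 148216 and 123593 normalized reads in the GFP- libraries and 499935, 252427 and 280155 in the GFP+ libraries and was higher in GFP+ cells by a log2 fold change of 0.99 (adjusted p = 0.0206, SE 0.28). Without the libraries numbered 1 in both fractions, the log2 fold change of Meg3 was 1.0 (adjusted p = 7.4e-06). The part of nuclear RNA content in the result was not tested.

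Part of the small RNA genes of the cluster that are not members also passed. Of the interval's 72 genes, 63 were tested, 32 were higher in GFP+ cells (50.8%) and 1, Dio3, was lower (1.59%). Over all genes the shares were 12.7% and 18.0%. Among the 57 tested genes that are not members, 27 were higher (47.4%) and none was lower, and 53 had a positive log2 fold change, with a median of 1.11. Positive values also prevailed outside the interval, in 69 of 95 small nucleolar RNA genes (median 0.25) and 37 of 60 microRNA hairpin genes (median 0.14). Small nucleolar RNA genes were higher in 11 of 14 cases, against 2 of 95 outside the interval. MicroRNA hairpin genes were higher in 12 of 37 cases, against 1 higher and 1 lower of 60 outside it. With the library number as a block, the counts became 20 of 37 inside and 8 higher and 5 lower of 60 outside, and for small nucleolar RNA genes 13 of 14 inside and 4 higher and 1 lower of 95 outside. Long intergenic RNA genes outside the interval were higher in 65 and lower in 92 of 603 cases. Reads of the long host transcript, the hairpin and the mature microRNA cannot be told apart in these counts.

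**Figure D2:**
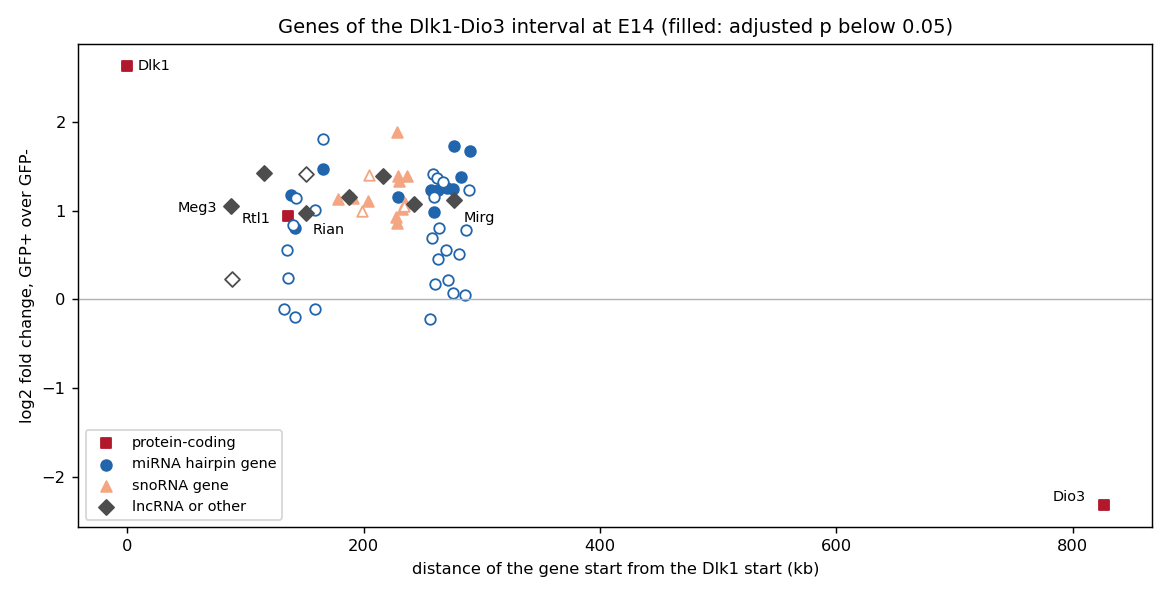
The log2 fold change of GFP+ over GFP- cells for the 63 tested genes of the Dlk1-Dio3 interval is plotted against the distance of each gene's start from the start of Dlk1 in kb, with marker shapes for gene types and filled markers for an adjusted p below 0.05. Filled markers lie between 0.80 and 2.63 except for Dio3 at the far end at -2.32.

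Of the 12 hairpin genes that were higher, 11 were matched in RefSeq (GRCm38.p6), with 18 mature microRNAs and 18 different seeds, so no seed was shared among them. Shown are those of Mir544 and Mir409, with the smallest adjusted p among the hairpin genes matched in RefSeq, and of Mir432 and Mir433, the hairpin genes called against Rtl1, 5′ to 3′, with the seed (bases 2 to 8), which pairs with target messages, in capitals. On GRCm38 and the + strand, the hairpin genes lie at chr12:109729325-109729402 (Mir544, just before Mirg), chr12:109743158-109743236 (Mir409, within Mirg), chr12:109594956-109595030 (Mir432) and chr12:109591715-109591838 (Mir433).
mmu-miR-544-5p: uCUUGUUAaaaagcagagucu
mmu-miR-544-3p: aUUCUGCAuuuuuagcaagcuc
mmu-miR-409-5p: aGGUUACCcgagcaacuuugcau
mmu-miR-409-3p: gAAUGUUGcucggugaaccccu
mmu-miR-432: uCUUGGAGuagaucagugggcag
mmu-miR-433-5p: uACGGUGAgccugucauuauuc
mmu-miR-433-3p: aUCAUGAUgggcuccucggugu
Values over the Mir544 hairpin were 12.9, 14 and 8.74 normalized reads in the GFP- libraries and 45.5, 46.3 and 33 in the GFP+ libraries, without overlap, at a log2 fold change of 1.73 (adjusted p = 0.0012, SE 0.31). Over the Mir409 hairpin they were 17.2, 10.5 and 8.74 normalized reads in the GFP- libraries and 45.5, 29.6 and 45.7 in the GFP+ libraries, at 1.67 (adjusted p = 0.0029, SE 0.34). The hairpins within Rtl1 had 88.3, 91 and 82.2 normalized reads in the GFP- libraries and 190.3, 128 and 146 in the GFP+ libraries over Mir432, at 0.80 (adjusted p = 0.0052, SE 0.18), and 54.9, 51.6 and 28 normalized reads in the GFP- libraries and 146, 69.4 and 94.6 in the GFP+ libraries over Mir433, at 1.18 (adjusted p = 0.0149, SE 0.32). Every GFP+ library was above every GFP- library at all 4 hairpins.

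Peg13, a long non-coding RNA within an intron of Trappc9 and read from the paternal copy, was the other member higher by more than 1 on the log2 scale. It stood at 4329, 5512 and 5177 normalized reads in the GFP- libraries and 10055, 10682 and 11314 in the GFP+ libraries, with separate groups and a log2 fold change of 1.10 (adjusted p = 5.2e-06, SE 0.10). Its host Trappc9, a subunit of a membrane trafficking complex, stood at 973, 1077 and 1080 normalized reads in the GFP- libraries and 745, 940.0 and 896 in the GFP+ libraries, at -0.28 (adjusted p = 0.0577, SE 0.10), and passed with the library number as a block at an adjusted p of 0.0011. Both genes lie on the same strand, so reads over their shared bases could not be assigned by strand. The log2 ratio of Trappc9 to Peg13 fell from -2.26 ± 0.10 to -3.64 ± 0.12 without overlap (two-sided exact permutation test, p = 0.1).

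Asb4, an ankyrin repeat protein with a SOCS box, was higher by 0.66 (adjusted p = 1.3e-04, SE 0.09). Ube3a, the ubiquitin ligase of Angelman syndrome, which is read from the maternal copy in neurons, was higher by 0.50 (adjusted p = 0.0220, SE 0.14). Its libraries overlapped, the call was lost without any of 4 of the 6 libraries, with adjusted p up to 0.101, and it was lost under quantile normalization. The fit with the library number as a block kept it (adjusted p = 2.3e-08). Ube3a overlaps Snhg14, its antisense transcript from the paternal copy, whose means in GFP+ and GFP- cells were 15337 ± 4204 and 12619 ± 2723 normalized reads (SD, n = 3 libraries each) and which did not pass (adjusted p = 0.300).

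The growth genes of the H19-Igf2 locus were lower in GFP+ cells. H19, a maternally read long non-coding RNA, stood at 4213, 4127 and 4885 normalized reads in the GFP- libraries and 1480, 1224 and 1237 in the GFP+ libraries. Igf2, the fetal growth factor on the paternal copy, stood at 98, 76.1 and 88.3 normalized reads in the GFP- libraries and 31.1, 54.6 and 20.2 in the GFP+ libraries. The groups did not overlap for either gene. The log2 fold changes were -1.75 (adjusted p = 1.3e-07, SE 0.10) for H19 and -1.39 (adjusted p = 0.0061, SE 0.32) for Igf2. Igf2r, the receptor that clears IGF2, did not pass, with a log2 fold change of -0.01 (adjusted p = 0.944, SE 0.07), and Airn, its antisense transcript, at 6.48 to 19.4 normalized reads over the 6 libraries, had -0.78 (adjusted p = 0.145, SE 0.38).

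Of the remaining lower members, Plagl1, a zinc finger factor that regulates other imprinted genes, stood at 419, 287 and 275 normalized reads in the GFP- libraries and 82.6, 70.3 and 77.6 in the GFP+ libraries, without overlap, at -2.05 (adjusted p = 4.2e-06, SE 0.18). Grb10, an adaptor that restrains insulin and IGF receptors, had a log2 fold change of -0.84 (adjusted p = 8.6e-06, SE 0.08). Peg10, a retrotransposon-derived gene, had -0.79 (adjusted p = 2.7e-05, SE 0.09), and Mest, a hydrolase-like protein of mesoderm, -0.72 (adjusted p = 2.9e-04, SE 0.11). The neighbours Sgce, Ppp1r9a and Copg2 did not pass, with log2 fold changes of -0.21 (SE 0.11), -0.05 (SE 0.07) and 0.01 (SE 0.07).

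Summed levels of 6 general neuron markers were 115192 to 123154 normalized reads in GFP- and 157163 to 163108 in GFP+ libraries. Of these, 4 of 6 were higher in GFP+ cells, so the GFP- fraction was also rich in neuron markers. Markers of other cells also differed between the fractions. Summed levels of 8 radial glia and progenitor markers were 73845 to 88516 normalized reads in GFP- and 7090 to 8654 in GFP+ libraries, and 8 of 8 were lower in GFP+ cells. For 8 fibroblast and meningeal markers the sums were 1658 to 1873 and 142 to 266, with 5 of 7 tested lower and 1 of 8 at 0 in GFP+ cells. Endothelial and mural markers summed to 1380 to 1535 and 617 to 700, with 7 of 8 lower, microglia and macrophage markers to 446 to 600 and 34 to 62.9, with 7 of 7 lower, and erythroid markers to 13734 to 14882 and 317 to 500, with 7 of 7 lower, and no marker of these 3 lists was at 0 throughout a group. Of 6 oligodendrocyte lineage markers 5 were lower, with sums of 3251 to 3610 and 622 to 1057. Of 5 GABA neuron markers, Slc32a1 (1.16) and Gad2 (0.23) were higher and Gad1 (-3.73), Tal1 (-4.46) and Gata3 (-3.48) lower on the log2 scale, with sums of 3901 to 4513 and 2577 to 2826. Their part in the lower levels of these imprinted genes was not tested.

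Genes of the Prader-Willi region on chromosome 7 were split. Magel2, a regulator of protein trafficking through ubiquitin ligases, stood at 521, 518 and 472 normalized reads in the GFP- libraries and 168, 201 and 174 in the GFP+ libraries. Ndn, its relative necdin, stood at 13911, 14756 and 12763 normalized reads in the GFP- libraries and 10285, 11661 and 11242 in the GFP+ libraries. Their groups did not overlap, and the log2 fold changes were -1.48 (adjusted p = 1.9e-06, SE 0.12) for Magel2 and -0.32 (adjusted p = 0.0161, SE 0.09) for Ndn, the latter lost without either of 2 libraries (adjusted p up to 0.0756). Snrpn, a splicing protein of neurons, and Mkrn3, a ring finger protein, did not pass, at -0.11 (adjusted p = 0.462, SE 0.10) and -0.14 (adjusted p = 0.293, SE 0.10). The log2 ratio of Magel2 to Ndn fell from -4.77 ± 0.05 to -5.93 ± 0.07 without overlap (two-sided exact permutation test, p = 0.1).

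The most abundant member per 1000 bases of exon in GFP+ cells was Nnat, neuronatin, a small membrane protein, at 22541 normalized reads per 1000 bases, followed by Ndn at 2995, Rian at 2769, Peg13 at 2261, Snrpn at 2225 and Meg3 at 2175. Nnat stood at 52285, 58264 and 53213 normalized reads in the GFP- libraries and 35833, 44028 and 43818 in the GFP+ libraries, with a log2 fold change of -0.41 (adjusted p = 0.0145, SE 0.11). It lies within Blcap on the opposite strand, and Blcap had 0.04 (adjusted p = 0.779, SE 0.09). Inpp5f, a lipid phosphatase, Nap1l5, related to nucleosome assembly proteins, and Impact, an inhibitor of translational control, were modestly lower, at -0.41 (SE 0.08), -0.38 (SE 0.09) and -0.33 (SE 0.10). Nap1l5 stood at 1872, 2119 and 2301 normalized reads in the GFP- libraries and 1590, 1661 and 1560 in the GFP+ libraries. Impact stood at 1460, 1419 and 1516 normalized reads in the GFP- libraries and 1317, 1176 and 1029 in the GFP+ libraries, and neither gene had overlapping groups. The calls of Impact and Nnat were lost when 1 library was left out, for Impact in 4 of 6 cases with adjusted p up to 0.112 and for Nnat in 1 with 0.0654.

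The Peg3 cluster did not pass in the sorted cells. Peg3, a zinc finger protein of the paternal copy, stood at 9676, 8347 and 8810 normalized reads in the GFP- libraries and 8423, 7766 and 8006 in the GFP+ libraries. Usp29, a ubiquitin protease, stood at 4449, 4660 and 4768 normalized reads in the GFP- libraries and 5004, 5172 and 5266 in the GFP+ libraries. Zim1, a zinc finger gene read from the maternal copy, stood at 518, 562 and 517 normalized reads in the GFP- libraries and 412, 526 and 437 in the GFP+ libraries. With the library number as a block, all passed, Peg3 lower (-0.15, adjusted p = 0.0273), Usp29 higher (0.15, adjusted p = 0.0189) and Zim1 lower (-0.22, adjusted p = 0.0282). The same block added Kcnq1ot1, an antisense RNA that silences its cluster (0.67, adjusted p = 1.6e-07, and 0.0829 without the block), Nespas (0.38, adjusted p = 0.0299) and Sgce (-0.21, adjusted p = 0.0151), and raised the share of all genes called to 46.4%. Gnas, Commd1, Zrsr1 and Mcts2 passed in neither fit.

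By the usual parental copy in the mouse, assigned from general knowledge after these values were seen, 5 of 12 members read from the maternal copy were higher and 1 was lower. Of 23 read from the paternal copy, 3 were higher and 10 lower. The shares over all genes were 12.7% higher and 18.0% lower, and 3 of the 5 higher maternal members, Meg3, Rian and Mirg, lie in 1 cluster. The split was not the same with age. From E14 to E16, 2 of 12 maternal members were higher and 5 lower, and 7 of 19 paternal members higher and 3 lower (15.2% and 17.8% over all genes). From E16 to P0 these counts were 5 and 1, and 6 and 7 (16.8% and 16.6%). From E14 to P0 they were 4 and 6, and 8 and 5 (25.1% and 30.6%).

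In the time series, 25 of 35 imprinted genes (71.4%) differed between E14 and P0, against a background of 55.7% over all 10781 genes, all of which passed the filter on low values. At P0, 14 were higher and 11 lower (40% and 31.4%), with 25.1% and 30.6% over all genes, and the members' median log2 fold change was 0.16, with -0.05 over all genes. The libraries of E14 and P0 did not overlap for 31 of 35 members (88.6%), with 65.2% over all genes. From E14 to E16, 11 were higher and 8 lower (54.3%, background 33.0%), and from E16 to P0, 13 were higher and 8 lower (60.0%, background 33.4%). Adjacent ages did not overlap for 20 of 35 members from E14 to E16 (57.1%, background 46.4%) and for 24 of 35 from E16 to P0 (68.6%, background 44.8%). A change over the ages in any direction was called for 28 of 35 (80.0%, background 59.7%). Zim1, Nap1l5, Meg3, Impact and Peg3 rose by more than 1 on the log2 scale between E14 and P0, and H19 and Dlk1 fell by more than 1.

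**Figure D3:**
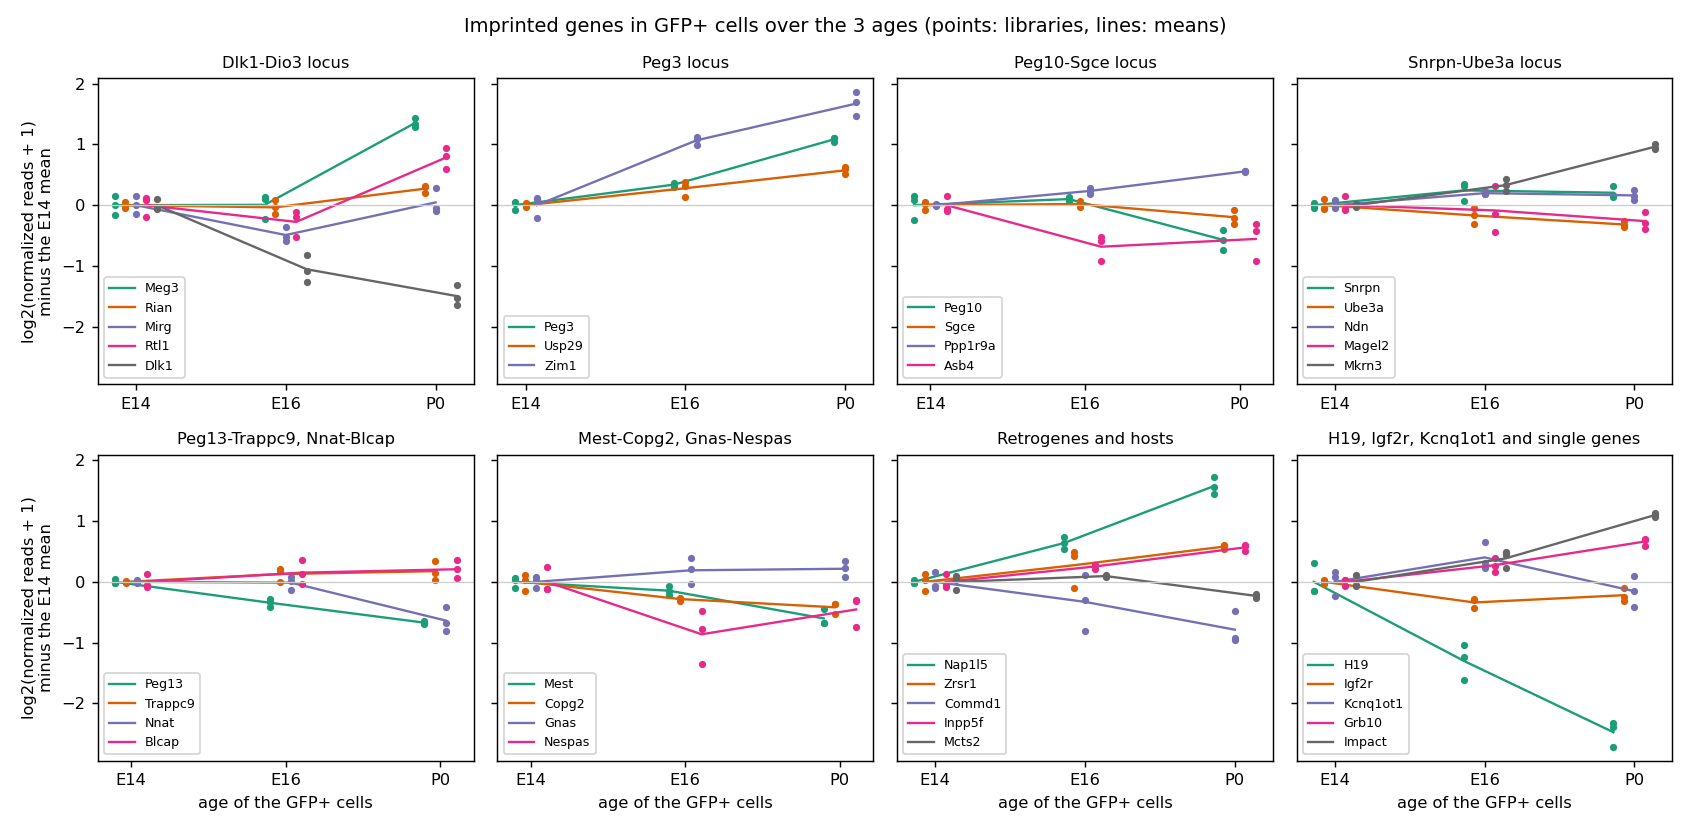
Each panel shows imprinted genes of the named loci in GFP+ cells at E14, E16 and P0, as log2(normalized reads + 1) minus the E14 mean, with points for the 3 libraries per age and lines through the means. Meg3 libraries overlap at E14 and E16 and lie higher at P0, Dlk1 and H19 fall in both steps, and Nap1l5, Zim1 and Peg3 rise in both steps.

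Dlk1 and Meg3 parted with age. Dlk1 stood at 2080, 2327 and 2073 normalized reads at E14, 895, 1224 and 1023 at E16 and 694, 746 and 866 at P0, falling in both steps, with log2 fold changes of -1.05 (adjusted p = 1.7e-05, SE 0.11) and -0.44 (adjusted p = 0.0099, SE 0.11). Meg3 stood at 59815, 48219 and 54311 normalized reads at E14, 59509, 57952 and 46038 at E16 and 135574, 130838 and 145636 at P0. Its E14 and E16 libraries overlapped, at 0.01 (adjusted p = 0.971, SE 0.12), and every P0 library was above them, at 1.34 (adjusted p = 4.2e-06, SE 0.12). By mean level Meg3 went from rank 15 of 10781 genes at E14 to rank 4 at P0.

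Rian stood at 68295, 67339 and 72138 normalized reads at E14, 67482, 73206 and 62391 at E16 and 86146, 85483 and 79378 at P0, and its gain from E16 to P0 was smaller, at 0.31 (adjusted p = 0.0214, SE 0.09). That call, and the one from E14 to P0 at 0.27 (adjusted p = 0.0226, SE 0.09), were lost without any of several libraries, with adjusted p up to 0.109 and 0.0826, and the latter also under quantile normalization. Mirg stood at 3465, 3136 and 3865 normalized reads at E14, 2307, 2706 and 2426 at E16 and 3243, 3381 and 4215 at P0, falling and then regaining its level, at -0.49 (adjusted p = 0.0029, SE 0.11) and 0.54 (adjusted p = 0.0020, SE 0.11). Rtl1 stood at 319.7, 264 and 329 normalized reads at E14, 265, 282 and 209.7 at E16 and 530.0, 459.8 and 585 at P0. It rose after E16, by 1.06 (adjusted p = 1.2e-04, SE 0.14), without overlap of E16 and P0. The log2 ratio of Rian to Meg3 went from 0.36 ± 0.15 at E14 and 0.32 ± 0.13 at E16 to -0.71 ± 0.14 at P0, and that of Mirg to Meg3 from -3.95 ± 0.15 and -4.45 ± 0.22 to -5.26 ± 0.14 (SD, n = 3 libraries each). P0 libraries lay below those of E16 in both ratios (two-sided exact permutation tests, p = 0.1).

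The change after E16 differed from the change before it for 10 of 35 members (28.6%, background 13.6%). The difference, later change minus earlier change, was positive for 7 and negative for 3 (background 8% and 5.62%). A positive difference is not by itself a rise after E16. Asb4, Igf2r and Nespas fell before E16. From E16 to P0 they did not pass, at 0.13, 0.12 and 0.41. Meg3 at 1.33 (adjusted p = 0.0013, SE 0.20), Rtl1 at 1.33 (adjusted p = 0.0042, SE 0.25) and Mirg at 1.03 (adjusted p = 0.0036, SE 0.18) were called whichever library was left out. The others were Asb4, Igf2r, Nespas and Peg3 in the same direction and Kcnq1ot1, Nnat and Peg10 in the opposite one. The count fell to 5 without E14 replicate 1, E14 replicate 2 or E16 replicate 1, to 4 without E16 replicate 3 and to 6 without P0 replicate 1 or P0 replicate 2. Malat1 fell and then regained its level, as Mirg did. It stood at 530030 ± 82034, 332782 ± 27381 and 494284 ± 44042 normalized reads at E14, E16 and P0 (SD, n = 3 libraries each), with log2 fold changes of -0.66 (adjusted p = 0.0042) and 0.57 (adjusted p = 0.0111). Meg3 and Rtl1 did not pass from E14 to E16, at 0.01 (adjusted p = 0.971) and -0.27 (adjusted p = 0.154). From E14 to P0 Malat1 was at -0.09 (adjusted p = 0.626, SE 0.15). Mirg was near it at 0.05 (adjusted p = 0.733, SE 0.11), while Meg3 was at 1.35 and Rtl1 at 0.78. The part of nuclear RNA content in these courses was not tested.

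H19 had the largest fall of any member and stood at 537, 532 and 732 normalized reads at E14, 192, 251 and 289 at E16 and 89.6, 118 and 113 at P0. The 3 ages did not overlap, and its log2 fold change from E14 to P0 was -2.47 (adjusted p = 6.2e-08, SE 0.18), a 5.55-fold difference. Of the radial glia and progenitor markers, 3 of 8 were in this table, with summed levels of 4047 to 4306 at E14, 2737 to 3128 at E16 and 2202 to 4403 at P0. Of these, Vim (-1.62) and Nes (-1.30) fell from E14 to P0 on the log2 scale, while Fabp7 rose (1.19), with P0 libraries at 1438, 1081 and 3293 normalized reads. In the same table, none of the fibroblast, endothelial, microglial or erythroid markers was listed. The lowest mean of any gene listed there was 107 normalized reads, against 1.46 in the sorted cells. Absence from it therefore does not show that a marker was not expressed. The part of such cells in the fall of H19 was not tested.

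The 3 members of the Peg3 cluster rose with age. Peg3 stood at 10627, 10472 and 9715 normalized reads at E14, 13129, 13147 and 12678 at E16 and 21984, 21198 and 22022 at P0. Levels of Usp29 were 6434, 6256 and 6153 normalized reads at E14, 8187, 6935 and 7799 at E16 and 8941, 9451 and 9654 at P0. Those of Zim1 were 809, 794 and 639 normalized reads at E14, 1621, 1475 and 1583 at E16 and 2046, 2410 and 2694 at P0. For each of the 3 genes, E14 and P0 did not overlap, with log2 fold changes of 1.08 (adjusted p = 2.3e-08, SE 0.07) for Peg3, 0.57 (adjusted p = 1.9e-05, SE 0.08) for Usp29 and 1.67 (adjusted p = 3.3e-08, SE 0.11) for Zim1. The log2 ratio of Usp29 to Peg3, whose start windows share the bases given above, was -0.71 ± 0.04 at E14 and -1.22 ± 0.07 at P0 without overlap (two-sided exact permutation test, p = 0.1).

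The retrogene Nap1l5 stood at 2132, 2140 and 2220 normalized reads at E14, 3597, 3156 and 3365 at E16 and 7123, 6400 and 5868 at P0, and the ages did not overlap, with 1.57 (adjusted p = 4.2e-09, SE 0.08) from E14 to P0. It lies on the opposite strand within Herc3, so that reads of the host could not be told apart. Zrsr1, a splicing factor retrogene, rose by 0.58 (adjusted p = 0.0020, SE 0.13), while its host Commd1, a copper and trafficking regulator, fell, at -0.79 (adjusted p = 0.0030, SE 0.19). Their log2 ratio, Commd1 to Zrsr1, went from -0.07 ± 0.29 to -1.43 ± 0.26 without overlap (two-sided exact permutation test, p = 0.1). Inpp5f rose by 0.57 (adjusted p = 2.4e-05, SE 0.08), and Mcts2 did not pass, at -0.23 (adjusted p = 0.102, SE 0.11).

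Impact stood at 1739, 1547 and 1539 normalized reads at E14, 2255, 1871 and 2189 at E16 and 3383, 3514 and 3438 at P0, rising in both steps, with 1.10 (adjusted p = 1.3e-07, SE 0.08) from E14 to P0. Grb10 rose by 0.66 (adjusted p = 6.3e-06, SE 0.08) and Mkrn3 by 0.96 (adjusted p = 5.3e-07, SE 0.09). Ppp1r9a, neurabin, a scaffold of dendritic spines, rose by 0.56 (adjusted p = 5.6e-06, SE 0.06), while its neighbours Peg10 and Asb4 fell, at -0.57 (SE 0.11) and -0.55 (SE 0.15) and Sgce, whose human gene is mutated in myoclonus-dystonia, did not pass at -0.20 (SE 0.09). Snrpn passed at 0.20 (adjusted p = 0.0493), lost without any of 6 of the 9 libraries.

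Nnat stood at 50573, 48737 and 49367 normalized reads at E14, 45363, 49812 and 52327 at E16 and 28302, 30898 and 37041 at P0. Its E14 and E16 libraries overlapped and every P0 library was lower, at -0.62 (adjusted p = 5.5e-04, SE 0.10). From E14 to P0, Mest fell, at -0.60 (adjusted p = 7.8e-05, SE 0.09), as did Copg2, at -0.42 (adjusted p = 6.6e-04, SE 0.08), and Ube3a, at -0.32 (adjusted p = 0.0045, SE 0.08).

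Peg13 stood at 9846, 10314 and 9862 normalized reads at E14, 7481, 8268 and 7934 at E16 and 6388, 6268 and 6203 at P0. The ages did not overlap, and it fell, at -0.67 (adjusted p = 1.6e-06, SE 0.07). Its host Trappc9 stood at 919, 927 and 910.2 normalized reads at E14, 919, 1035 and 1063 at E16 and 1016, 939 and 1172 at P0 and did not pass, at 0.18 (adjusted p = 0.132, SE 0.10). The log2 ratio of Trappc9 to Peg13 went from -3.44 ± 0.03 at E14 to -2.97 ± 0.07 at E16 and -2.60 ± 0.17 at P0 without overlap of the ages (two-sided exact permutation tests, p = 0.1).

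Magel2 stood at 198, 170.3 and 168 normalized reads at E14, 131, 223 and 162 at E16 and 165, 136 and 146 at P0. Its relative Ndn stood at 13109, 12973 and 14172 normalized reads at E14, 15164, 15762 and 15230 at E16 and 14839, 14216 and 15982 at P0. Neither passed from E14 to P0, at -0.26 (adjusted p = 0.237, SE 0.18) and 0.16 (adjusted p = 0.0747, SE 0.07). Igf2r was slightly lower, at -0.22 (adjusted p = 0.0240, SE 0.08), a call lost without any of 4 of the 9 libraries with adjusted p up to 0.112.

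At P0 the highest levels per 1000 bases of exon were those of Nnat at 17540 normalized reads per 1000 bases, Meg3 at 7593, Rian at 4589, Ndn at 4064 and Nap1l5 at 3505. At E14 Meg3 had been at 2992 and Nap1l5 at 1173 in the same table.

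The sorted and time series libraries are separate samples, and 35 members were in both tables. Of these, 15 passed in GFP+ against GFP- cells and in P0 against E14. Meg3, Rian and Rtl1 were higher in both. Dlk1, Peg13, Asb4 and Ube3a were higher in GFP+ cells and lower at P0, and Grb10, Impact, Inpp5f and Nap1l5 were lower in GFP+ cells and higher at P0. H19, Mest, Nnat and Peg10 were lower in both. A further 3 passed in the sorted cells alone, 10 with age alone and 7 in neither.

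**Figure D4:**
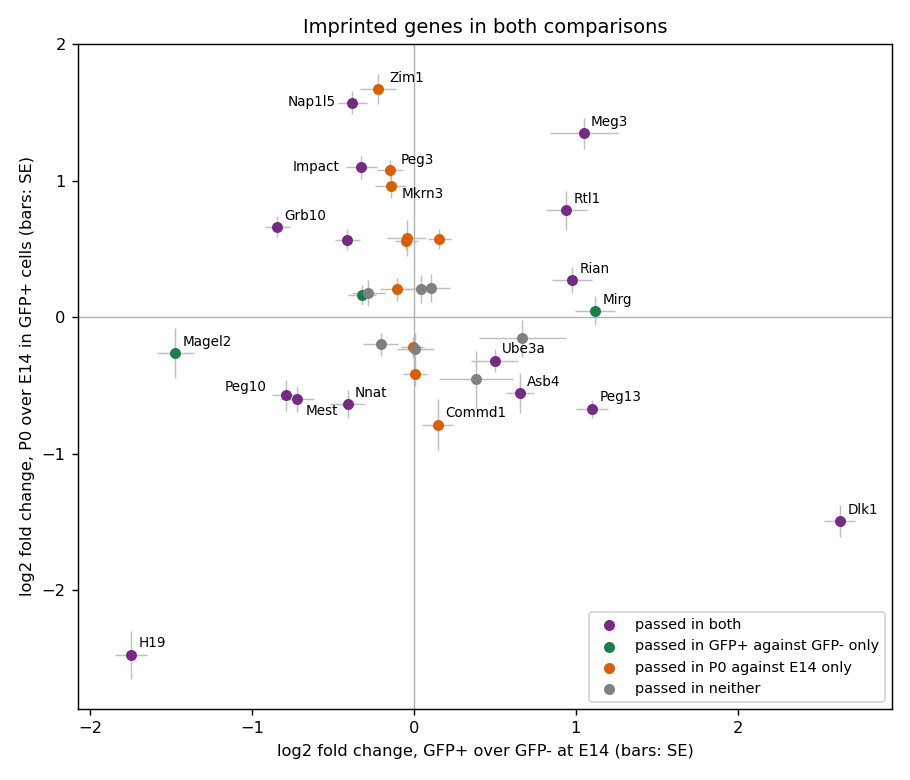
The log2 fold change of P0 over E14 in GFP+ cells is plotted against that of GFP+ over GFP- cells at E14 for the 35 imprinted genes in both tables, with bars of 1 SE and colours for which comparison passed. Dlk1 lies at the lower right (2.63 and -1.49), Meg3 at the upper right (1.05 and 1.35) and H19 at the lower left (-1.75 and -2.47).

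Further imprinted genes outside the 40, from a list of 54, gave 11 higher and 14 lower of 44 tested in GFP+ against GFP- cells (12.7% and 18.0% over all genes), and 16 and 17 under the block (22.7% and 23.6%), with a median log2 fold change of 0.02, the same as over all genes. Ddc and Th, whose enzymes make dopamine, were among those higher in GFP+ cells, at 4.72 and 6.57. Both are also among the 8 dopamine neuron markers given above, which GFP sorting enriches. From E14 to P0, 13 were higher and 10 lower of 28 tested (25.1% and 30.6% over all genes), with a median of 0.15 against -0.05. Cdkn1c, a cell cycle inhibitor read from the maternal copy, was higher in GFP+ cells by 0.66 (adjusted p = 3.6e-05, SE 0.07) and fell with age by the largest amount in the list, from 4833 ± 925 at E14 to 1887 ± 61.3 at E16 and 585 ± 155 normalized reads at P0 (SD, n = 3 libraries each). Peg12, in the Prader-Willi region beside Magel2, was lower in GFP+ cells, at 36.7 ± 7.56 against 238 ± 9.28, a log2 fold change of -2.68 (SE 0.19).

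Regulators that lay down, read or keep imprints were called lower more than higher with age. Of 26 tested, 5 were higher in GFP+ cells, among them Smc3 and Rad21 of the cohesin complex, and 2 lower (Uhrf1 and Hells, which act in replicating cells), with 10 and 3 under the block, against 12.7% and 18.0% of all genes, and 22.7% and 23.6% under the block. From E14 to P0, 2 of 24 were higher and 13 lower (25.1% and 30.6% over all genes), with a median log2 fold change of -0.29 against -0.05 over all genes. Trim28, the co-repressor at imprints, had -0.87 (SE 0.10), Dnmt1, the maintenance methyltransferase, -0.43 (SE 0.07), Ctcf, the insulator protein, -0.55 (SE 0.09) and Ezh2, a Polycomb methyltransferase, -1.91 (SE 0.13). Dnmt3a, a methyltransferase that adds new marks, rose by 0.37 (SE 0.07), and Tet1, which oxidises methylcytosine, by 0.37 (SE 0.08). Zfp57 fell from 6350 ± 382 at E14 to 4073 ± 180 at E16 and was at 5841 ± 114 normalized reads at P0 (SD, n = 3 libraries each), with a change after E16 that differed from the change before it (1.16, SE 0.12, adjusted p = 1.5e-04).

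Partners of Igf2, Igf2r, Grb10 and H19 in IGF signalling moved in both directions. Of 16 tested in the sorted cells, 3 were higher in GFP+ cells and 5 lower, with 7 and 6 under the block (12.7% and 18.0% over all genes, and 22.7% and 23.6% under the block). The RNA-binding protein gene Igf2bp2 had a log2 fold change of -2.35 (SE 0.19). From E14 to P0, 6 of 13 were higher and 4 lower (25.1% and 30.6% over all genes), with a median of 0.12 against -0.05. Igf1, the postnatal growth factor, rose from 463 ± 98.4 at E14 to 1380 ± 63.4 at E16 and 1437 ± 166 normalized reads at P0 (SD, n = 3 libraries each). Igf1r, the receptor, fell from E14 to P0, at -0.87 (SE 0.08), and Igfbp2, a binding protein, at -1.94 (SE 0.11).

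Circular RNAs of imprinted genes were few in reads. In the time series, 28 circRNAs came from 11 members, 17 were seen in a single library and 3 in all 9, and the other 29 members had none listed. Library totals were 22231 to 33061 circRNA reads at E14 and E16 and 11196 to 18097 at P0, and 2 reads was the lowest value above 0. The circRNA values were scaled apart from the gene values. A circRNA read counted as 0.72 to 0.91 normalized reads at E14 and 1.19 to 1.65 at P0. For a gene read these were 0.88 to 1.44 and 0.74 to 1.24. Changes of circRNAs toward P0, and their ratios to the host, depend on this scaling. Ppp1r9a gave 7 circRNAs with 267 reads, Trappc9 6 with 231, Sgce 2 with 99 and Ube3a 5 with 48. The highest was circ_00122_Ppp1r9a, which stood at 24.4, 20.1 and 29.2 normalized reads at E14, 22, 32.4 and 21.4 at E16 and 36.3, 27.7 and 22.5 at P0, with overlap of the ages.

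Of the 28 circRNAs, 6 reached the mean of 2 normalized reads needed for the test, and none changed over the ages (limma F test, adjusted p below 0.05), with 2 at an unadjusted p below 0.05 and a background of 1.10% over 1630 circRNAs. The ratio of circRNA to host gene was called for none of 6 either, with 2 at an unadjusted p below 0.05 and a background of 0.128%. From E14 to P0, none of the 6 circRNAs passed (background 3.19%), nor did any of their ratios to the host (background 0.706%). The largest difference for its error was that of circ_00277_Trappc9, which stood at 4.58, 7.9 and 4.57 normalized reads at E14, 12.7, 21 and 18.3 at E16 and 18.2, 17.9 and 20.1 at P0, with P0 over E14 at 1.60 (adjusted p = 0.0709, SE 0.47). In normalized reads, every E14 library of that circle was below every later library. Its recovered reads were 6, 11 and 5 at E14, 19, 22 and 24 at E16 and 11, 11 and 17 at P0. Next in level, circ_00447_Sgce stood at 4.58, 5.75 and 6.39 normalized reads at E14, 6.0, 11.5 and 8.41 at E16 and 24.8, 8.15 and 11.9 at P0, with overlap between adjacent ages and every P0 library above every E14 library. The circle circ_00744_Trappc9 stood at 7.64, 2.87 and 3.65 normalized reads at E14, 8.66, 1.91 and 3.82 at E16 and 8.25, 13 and 0 at P0. The circle circ_00869_Trappc9 stood at 3.82, 6.47 and 2.74 normalized reads at E14, 7.33, 0 and 4.59 at E16 and 4.95, 4.89 and 4.74 at P0, so that neither had separate ages. In the sorted cells, the authors' deposited table held 19 circRNAs of 9 members, 4 of them with an adjusted p, none below 0.05 by the authors' test (lowest 0.987) and none with an unadjusted p below 0.05, against 1.15% of 958 circRNAs called.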

How the data were processed

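Values are the authors' normalized reads per gene or circRNA, deposited as a signal table per experiment. The tools listed in the submitters' processing notes are TopHat2, Trim Galore and DESeq2, with mm10 and GRCm38 as builds; their roles and versions are not given in the sources used here. Of the values, 100% were whole multiples of 1 step per library (tolerance 0.1), from which whole reads were recovered. From the deposited values, log2(normalized reads + 1) was computed. Genes with a mean of at least 5 and circRNAs with a mean of at least 2 were tested by limma 3.58.1 with trend (R 4.3.3), with Benjamini-Hochberg adjustment over all features and a threshold of 0.05; fold changes on this scale understate those of low genes. The p-values of the sorted circRNAs are from the authors' deposited table. Alternatives were edgeR 4.0.16 on the reads recovered in the sorted cells, other pseudocounts and filters, quantile normalization, left-out libraries and the library number as a block. The method was tested on simulated data. In the sorted table, deviations of libraries correlated at 0.23 to 0.64 for the same column number and at -0.54 to 0.39 for different numbers. These ranges overlap, and GFP- library 3 was closer to GFP+ library 2 (0.39) than to GFP+ library 3 (0.23). The same-number correlations were all positive. With 3 libraries per fraction, the deviations within a fraction depend on each other, so these correlations cannot decide whether the libraries are paired. The sample descriptions number the sorted libraries differently from the columns, with the same set of numbers in both fractions. Whether a shared number marks a shared sort is not stated, and the labels tie no number to an animal or litter. The main fit treats the libraries as unpaired, and the block treats them as paired by column number. Every library is given for members past the threshold with a log2 fold change of at least 1 in either main comparison, their partners in the pairs of neighbouring genes used for ratios, the 3 most abundant members and Rtl1. Members, lists and tests were chosen with earlier results of these data known. Positions and exon lengths come from the GENCODE annotation of GRCm38, sequences from RefSeq.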

Additional observations from a re-analysis of the deposited data

How the results depend on the processing

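No member called with all libraries changed direction under any alternative run; members that had not passed, such as Blcap, Copg2 and Zrsr1 in the sorted cells, crossed 0 in some. Leaving out each library in turn gave 7 to 9 members higher and 10 to 14 lower in GFP+ cells, where all libraries gave 8 and 13. It gave 8 to 12 higher and 7 to 9 lower at E16 than at E14, 12 to 15 and 7 to 9 at P0 than at E16, and 12 to 15 and 10 to 12 at P0 than at E14. Changes over the 3 ages were called for 26 to 28 members, differing changes before and after E16 for 4 to 10, and circRNAs and their host ratios for 0 throughout. Of the calls with all libraries, 17 of 21 in the sorted cells, 14 of 19 from E14 to E16, 19 of 21 from E16 to P0 and 22 of 25 from E14 to P0 were kept in every such fit. With the library number as a block, the members called in the sorted cells became 11 and 17, and all genes called rose from 5599 to 8466. The edgeR quasi-likelihood test on recovered reads called 5541 genes and 8 members higher and 13 lower. In the time series the samples share only a number (correlations -0.11 to 0.24 for the same number), and the replicate block gave 14 higher and 12 lower at P0 than at E14. Low reads limit the circRNA tests.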
